A study of Ambystoma mexicanum with 9 samples.

Results

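AREG and IGF1R encode a growth factor and a growth factor receptor, and their transcripts were followed in the spinal cord of the axolotl (Ambystoma mexicanum), a salamander that regrows its cord after injury. All probe sets that the annotation of the array assigned to either symbol alone were taken, which gave 1 probe set for AREG and 1 for IGF1R among 20035 probe sets other than array controls. They are 2 of 8639 genes with a symbol on the array. The genes were selected on their measured signal in the 3 groups of these arrays. Their levels are therefore given as a description with no test.

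The 9 arrays held RNA of 3 groups of 3, each array a pool of 10 animals of 2 to 3 cm whose age was not given. The group named 0dpi was uninjured cord, with no injection named. The group named 1dpi was taken 1 day after an injury that its label calls a crush. The group named 1dpiT was cord injected with ivermectin, which opens chloride channels gated by glycine, and was taken 1 day after injury. The series text states that water or ivermectin was injected into the central canal and that a piece of cord was then cut out. By this text 1dpi would differ from 0dpi by both injection and injury, which cannot be told apart. Likewise 1dpiT would differ from 0dpi by injection, injury and ivermectin together. The label of 1dpi names a crush and the series text a cut, so whether 1dpi and 1dpiT had the same injury is not settled. The dissected piece held cord together with neighbouring cells and tissues. No strain or transgene was named for any group.

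Amphiregulin, the product of AREG, is made as a membrane protein of the epidermal growth factor (EGF) family, is cut free by proteases and binds the receptor EGFR. It is known for its release by epithelial and immune cells during repair. IGF1R is the tyrosine kinase receptor for the insulin-like growth factors, which signals through docking proteins to the PI3K-AKT-mTOR and RAS-ERK pathways, and in the vertebrate nervous system it is known to support survival and growth of neurons and their precursors. In the RefSeq annotation of the axolotl assembly UKY_AmexF1_1, AREG lies between EREG and BTC, genes of other ligands of the same family, and IGF1R lies between SYNM and PGPEP1L.

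AREG lay highest in 1dpi and lowest in 1dpiT. Its log2 RMA signal was 10.36, 10.23 and 10.25 in the arrays of 0dpi, 11.18, 11.07 and 11.12 in those of 1dpi, and 9.91, 9.97 and 9.99 in those of 1dpiT. All arrays of 1dpi lay above all others, all arrays of 1dpiT lay below all others, and no pair of groups overlapped. Of all 20035 probe sets, 28% lay in 1dpi wholly above 0dpi, 28.4% lay in 1dpiT wholly below 1dpi, and 10.9% lay in 1dpiT wholly below 0dpi, the positions AREG took. The RMA signal is a background-corrected, normalised probe intensity on a log2 scale, so a difference is the log2 of a fold change.

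The mean of AREG was 10.28 ± 0.07 (SD, n = 3) in 0dpi, 11.12 ± 0.05 in 1dpi and 9.95 ± 0.04 in 1dpiT. The level in 1dpi exceeded that in 0dpi by 0.85 ± 0.05 on the log2 scale (SE of the difference, 1.8-fold), and the nearest arrays of these groups were 0.71 apart. The level in 1dpiT was below that in 1dpi by 2.25-fold (log2 difference -1.17 ± 0.04), with a gap of 1.09 between the nearest arrays. It was also below that in uninjured cord, by 1.25-fold (-0.32 ± 0.05, gap 0.24). Each array of 1dpiT thus lay below each array of uninjured cord.

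IGF1R had another pattern, with 1dpiT above both other groups. Its log2 signal was 5.44, 5.38 and 5.59 in 0dpi, 5.33, 5.65 and 5.65 in 1dpi, and 6.31, 6.18 and 6.35 in 1dpiT. The arrays of 0dpi and 1dpi overlapped, and the lowest of all 9 arrays was replicate 1 of 1dpi. Every array of 1dpiT lay above every other array, a position that 32% of probe sets had against 1dpi and 12.1% against 0dpi.

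Group means of IGF1R were 5.47 ± 0.11 (SD, n = 3) in 0dpi, 5.54 ± 0.18 in 1dpi and 6.28 ± 0.09 in 1dpiT. Uninjured and 1dpi cord did not differ beyond their spread (log2 difference 0.07 ± 0.12 as 1dpi minus 0dpi), and this difference was -0.47 once arrays were centred on spiked-in control RNAs. The level in 1dpiT was 1.67-fold above 1dpi (0.74 ± 0.12, gap 0.53) and 1.75-fold above 0dpi (0.81 ± 0.08, gap 0.59). In order of level, 1dpiT stood first, and the other groups were neighbours that could not be ordered.

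**Figure D1:**
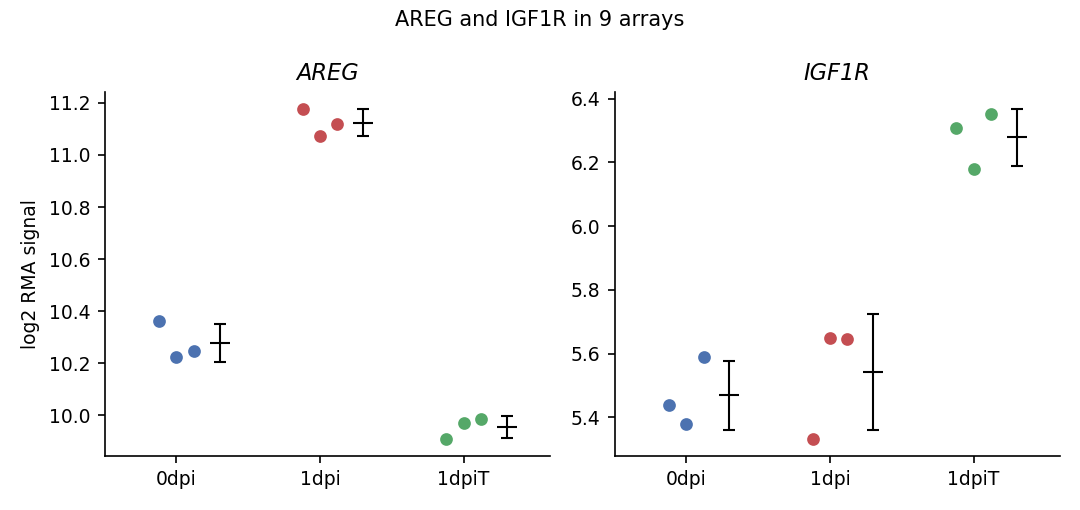
Log2 RMA signal (vertical axis) of AREG (left) and IGF1R (right) in the 3 groups, with 1 point per array and the group mean ± SD beside it (n = 3). AREG was highest in 1dpi (11.07 to 11.18) and lowest in 1dpiT (9.91 to 9.99), and IGF1R was highest in 1dpiT (6.18 to 6.35) while 0dpi and 1dpi overlapped; the vertical axes do not start at 0 and levels of the 2 probe sets are not comparable.

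Groups that do not overlap were common on this array. Between 1dpi and 0dpi 59.4% of probe sets did not overlap in either direction, between 1dpiT and 1dpi 60.4%, and between 1dpiT and 0dpi 23.1%. By size, 90% of probe sets had a smaller absolute difference than AREG between 1dpi and 0dpi, 94.5% between 1dpiT and 1dpi and 95.8% between 1dpiT and 0dpi. The same shares for IGF1R were 22.4%, 85.9% and 99.7%. The 1.75-fold difference of IGF1R between 1dpiT and uninjured cord was thus among the larger ones of a comparison in which few probe sets moved far. Both genes were selected on their signal in these groups, so such ranks follow in part from the selection and are only a description.

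Across probe sets, r lay between 0.997 and 0.999 within a group, between 0.996 and 0.997 for 0dpi with 1dpiT, and between 0.967 and 0.972 for 1dpi with either. Array medians lay between 5.84 and 5.89. Poly-A control RNAs, which are spiked into the RNA before labelling, averaged 7.54 ± 0.03 (SD, n = 3) in 0dpi, 8.08 ± 0.04 in 1dpi and 7.43 ± 0.05 in 1dpiT. Centring arrays on these controls shifted every difference by -0.55 (1dpi minus 0dpi), 0.65 (1dpiT minus 1dpi) and 0.10 (1dpiT minus 0dpi). The differences of AREG then became 0.30, -0.52 and -0.22, each with its direction kept, and those of IGF1R became -0.47, 1.39 and 0.91. The cause of the unequal spike-in signal was not tested.

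Markers of tissues in the dissected piece differed between the groups too, on an array where 52.9% of all probe sets were called in 1dpi against 0dpi, 54% in 1dpiT against 1dpi and 5.6% in 1dpiT against 0dpi. All 13 measured skeletal muscle genes were called higher in 1dpi than in 0dpi and lower in 1dpiT than in 1dpi, directions that turned with spike-in centring for 2 (MYL1 and CKM) and 4 (MYL1, TNNT3, TTN and CKM) of them. These counts take the brightest probe set of each gene. For DES, 1 dimmer probe set went the other way (means 9.67 in 0dpi, 8.56 in 1dpi and 9.33 in 1dpiT), and another the same way (11.01, 11.23 and 11.04). In 1dpiT against 0dpi, 6 of the 13 were lower (MYL2, MYL3, TNNI1, TNNC1, TNNT1 and MYBPC1) and 1 higher (TTN), the first of these the direction of AREG. The summed level of the list, on the log2 scale, was 15.94 to 15.97 in 0dpi, 16.61 to 16.63 in 1dpi and 15.93 to 15.95 in 1dpiT. Fibroblast matrix genes (8 of 10 higher and 1 lower in 1dpi than 0dpi, 8 lower and 1 higher in 1dpiT than 1dpi, 0 called in 1dpiT against 0dpi) summed to 14.59 to 14.69, 15.57 to 15.59 and 14.58 to 14.63 in the same order. Erythrocyte markers (3 of 4 higher in 1dpi than 0dpi, 3 lower in 1dpiT than 1dpi, 1 lower in 1dpiT than 0dpi) summed to 9.03 to 9.08, 10.58 to 10.61 and 8.76 to 8.80. AREG was high in the same group. None of the markers in these lists had a mean below the negative controls of the array, and their part in the levels of AREG and IGF1R was not tested.

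Ependymoglia markers were higher in 5 and lower in 1 of 8 in 1dpi against 0dpi, higher in 2 and lower in 5 in 1dpiT against 1dpi, and higher in 2 and lower in 0 in 1dpiT against 0dpi. These shares were 75%, 87.5% and 25%, against 52.9%, 54% and 5.6% of all probe sets. The list summed to 13.50 to 13.58 in 0dpi, 13.97 to 13.98 in 1dpi and 13.51 to 13.57 in 1dpiT. The genes higher in 1dpiT than in 0dpi were GFAP, a filament of ependymoglia at 9.92 to 10.03 in 0dpi, 10.58 to 10.61 in 1dpi and 10.41 to 10.43 in 1dpiT (0.44 ± 0.05, adjusted p = 0.00044), and SLC1A3, a glutamate transporter of glia at 7.28 to 7.34, 8.08 to 8.25 and 7.71 to 7.85 (0.47 ± 0.06, adjusted p = 0.0013). SOX2 was not among the annotated probe sets. Neuron markers were higher in 7 and lower in 0 of 10 in 1dpi against 0dpi, higher in 1 and lower in 6 in 1dpiT against 1dpi, and higher in 4 and lower in 0 in 1dpiT against 0dpi (70%, 70% and 40%). They summed to 11.48 to 11.52 in 0dpi, 12.25 to 12.26 in 1dpi and 11.78 to 11.79 in 1dpiT, with SYT1 and MAP2 below the negative controls. The part of ependymoglia and neurons in the levels of AREG and IGF1R was not tested.

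Of 11 epithelial markers, 2 were higher and 6 lower in 1dpi than 0dpi, 4 higher and 3 lower in 1dpiT than 1dpi, and 4 lower in 1dpiT than 0dpi. These shares were 72.7%, 63.6% and 36.4%, against 52.9%, 54% and 5.6% of all probe sets. The summed epithelial level was 15.00 to 15.03 in 0dpi, 14.88 to 14.89 in 1dpi and 14.95 to 14.96 in 1dpiT, with no overlap. KRT8 was counted lower in 1dpi on its brightest probe set (means 13.44 in 0dpi and 13.13 in 1dpi). Another went from 12.80 to 13.50, and the others fell (11.88 to 11.57 and 12.30 to 12.15). EPCAM, an adhesion protein of epithelia, lay at 12.69 to 12.93 and was lower in 1dpiT than in 0dpi (-0.19 ± 0.04, adjusted p = 0.0405). Of 12 leukocyte markers, 5 were higher and 3 lower in 1dpi than 0dpi, 2 higher and 6 lower in 1dpiT than 1dpi, and 1 higher and 3 lower in 1dpiT than 0dpi (66.7%, 66.7% and 33.3%). The summed leukocyte level was 12.46 to 12.52 in 0dpi, 12.43 in 1dpi and 12.38 to 12.45 in 1dpiT. CTSS was counted lower in 1dpi on its brightest probe set (means 10.70 in 0dpi and 9.91 in 1dpi). Its dimmer probe sets went the other way, from 8.66 to 9.24 and from 6.99 to 9.09, with 8.40 and 7.02 in 1dpiT. Endothelial markers were called in both directions alike (2 and 2 of 8 in each comparison with 1dpi, 1 and 1 in 1dpiT against 0dpi). Their shares were 50% in the comparisons with 1dpi, close to the background, and 25% in 1dpiT against 0dpi, against 5.6%. The summed endothelial level was 9.93 to 9.97 in 0dpi, 10.03 to 10.07 in 1dpi and 9.77 to 9.84 in 1dpiT. That is the order of AREG with no overlap of groups, and its part in the level of AREG was not tested. These sums differed by less than the spike-in shifts of -0.55 (1dpi minus 0dpi) and 0.65 (1dpiT minus 1dpi). The order therefore holds only without spike-in centring, whereas AREG kept its directions under it. All summed levels of the marker lists are given without that centring, which shifts their differences by the same amounts. TIE1 of this list lay below the negative controls. Of 3 myelin markers, 1 was higher and 2 lower in 1dpi than 0dpi, 2 higher and 1 lower in 1dpiT than 1dpi, and 0 were called in 1dpiT against 0dpi. The summed myelin level was 11.67 to 11.72 in 0dpi, 11.87 to 11.93 in 1dpi and 11.69 to 11.74 in 1dpiT. With spike-in centring, called markers of the other lists that turned direction were, in 1dpi against 0dpi and in 1dpiT against 1dpi, 2 and 4 of ependymoglia, 1 and 3 of neurons, 3 and 4 of leukocytes, 1 and 1 of epithelia, 2 and 2 of endothelium and 1 and 1 of erythrocytes, and 0 of matrix and myelin, and in 1dpiT against 0dpi 0 markers turned. In such bulk tissue, fewer cells of a type and less RNA per cell cannot be told apart.

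The genes around AREG and IGF1R were taken from 13 lists of 124 genes, from ligands to the pathways below the receptors, and 81 of these genes were measured. A gene was called where the limma test gave an adjusted p below 0.05 over all probe sets, and each named difference is given ± the standard error of the model (n = 3 arrays per group). In 1dpi against 0dpi, 24 of the 81 genes were higher and 22 lower (56.8%), where 52.9% of all probe sets were called (24.7% higher, 28.2% lower). In 1dpiT against 1dpi, 19 were higher and 27 lower (56.8%, against 54% of all probe sets, 29% higher and 25% lower). In 1dpiT against 0dpi, 1 was higher and 10 lower (13.6%, against 5.6%, 2.26% higher and 3.34% lower). The shares of the first and second comparison were close to the background. Pathway and marker lists count 1 probe set per gene, while these backgrounds count all probe sets. Counted per gene, 54.8%, 56.5% and 5.83% of all 8639 genes were called in the 3 comparisons in the same order. The median difference over the 81 genes was 0.01, -0.00 and -0.01, and over all 8639 genes -0.00, 0.00 and 0.01. With arrays centred on the spike-ins the splits were 3 higher and 69 lower, 67 higher and 8 lower, and 5 higher and 6 lower, so that directions below are relative to the bulk of transcripts on the array. This centring kept the direction but ended the call for ERRFI1 (0.11, adjusted p = 0.27), IGFBP6 (0.05, adjusted p = 0.392) and ANKRD1 (0.11, adjusted p = 0.164) in 1dpi against 0dpi, for DUSP5 (-0.03, adjusted p = 0.61) and SGK1 (-0.07, adjusted p = 0.26) in 1dpiT against 1dpi, and for EGFR (-0.30, adjusted p = 0.0535), IGFBP3 (-0.18, adjusted p = 0.156), LRIG3 (-0.15, adjusted p = 0.127) and ANKRD1 (-0.18, adjusted p = 0.103) in 1dpiT against 0dpi. Both comparisons with 1dpi share its arrays, so a difference in them of opposite sign is in part the same measurement.

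**Figure D2:**
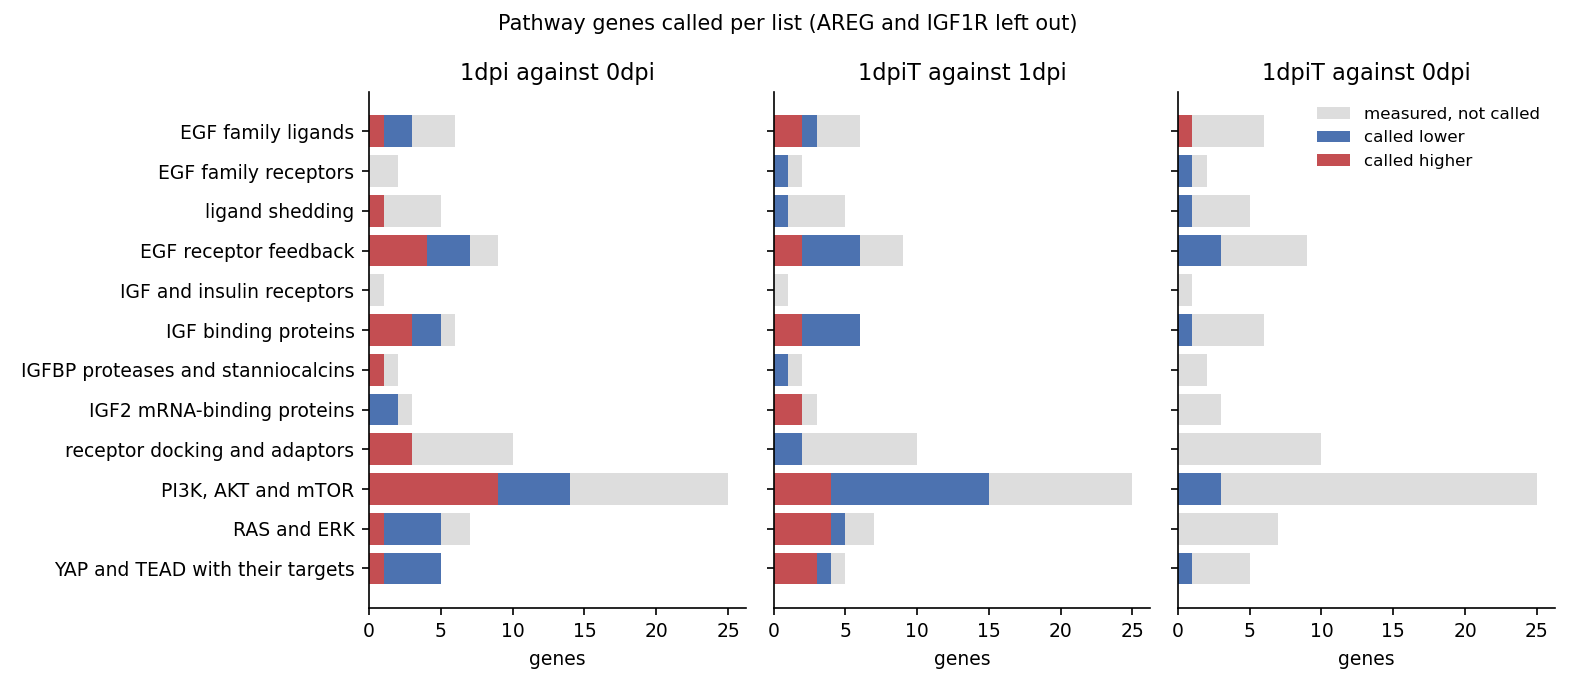
Number of genes (horizontal axis) called higher (red), called lower (blue) or measured but not called (grey) in each list with measured genes, for the 3 comparisons, with AREG and IGF1R left out. Calls were spread over both directions in 1dpi against 0dpi (24 higher, 22 lower) and in 1dpiT against 1dpi (19 and 27) and were mostly lower in 1dpiT against 0dpi (1 and 10), splits that became 3 and 69, 67 and 8, and 5 and 6 with arrays centred on the spike-ins.

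Among the other ligands of the EGF family, HBEGF took the pattern of AREG and EREG the reverse. HBEGF, a heparin-binding ligand of EGFR, lay at 7.86, 7.79 and 7.82 in 0dpi, 9.00, 9.06 and 9.07 in 1dpi, and 7.64, 7.81 and 7.65 in 1dpiT. It rose 2.34-fold in 1dpi (1.22 ± 0.06, adjusted p = 4.9e-08) and was 2.54-fold lower in 1dpiT than in 1dpi (-1.35 ± 0.06, adjusted p = 2.1e-08). Unlike AREG, HBEGF of 1dpiT overlapped uninjured cord (-0.12 ± 0.06, adjusted p = 0.29). EREG encodes epiregulin, which binds EGFR and ERBB4. Its signal was 9.76, 9.77 and 9.72 in 0dpi, 8.10, 8.12 and 8.10 in 1dpi, and 10.01, 9.98 and 9.91 in 1dpiT. It fell 3.12-fold in 1dpi (-1.64 ± 0.05, adjusted p = 1.9e-09) and was 3.63-fold higher in 1dpiT than in 1dpi (1.86 ± 0.05, adjusted p = 5.1e-10). EREG and AREG, neighbours in the genome, thus lay in opposite orders over the groups.

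EREG of 1dpiT also passed the test against 0dpi (0.22 ± 0.05, adjusted p = 0.021), a call lost when any of 5 arrays was left out (adjusted p = 0.052, 0.061 and 0.0759 without 0dpi replicates 1, 2 and 3, and 0.0652 and 0.0794 without 1dpiT replicates 1 and 2). NRG1, a neuregulin that binds ERBB3 and ERBB4, was lower in 1dpi than 0dpi (-0.33 ± 0.09, adjusted p = 0.011) and higher in 1dpiT than 1dpi (0.31 ± 0.09, adjusted p = 0.014). Leaving out 1dpi replicate 1 (adjusted p = 0.0539) or 1dpiT replicate 2 (0.054) ended the second NRG1 call, and the other NRG1 probe set was not called. The called NRG1 probe set lay at 3.60 to 4.15 over all arrays, near the highest negative control mean of 3.47. BTC, the other neighbour of AREG, encodes betacellulin and was near the threshold, at 5.89 to 6.13 in 0dpi, 6.16 to 6.55 in 1dpi and 5.97 to 6.15 in 1dpiT. Its difference between 1dpi and 0dpi was 0.27 ± 0.11 (adjusted p = 0.057). It passed with a filter on dim probe sets, another variance model, median or quantile scaling, or without 1dpi replicate 1 (adjusted p = 0.023 to 0.0414), and became -0.28 with spike-in centring (adjusted p = 0.041). Between 1dpiT and 1dpi it was -0.23 ± 0.11 (adjusted p = 0.089), which passed with median or quantile scaling or without 1dpi replicate 1 (adjusted p = 0.0362 to 0.0446) and became 0.41 with spike-in centring. EGF (3.46 to 3.94 over all arrays) and NRG3 (4.59 to 5.01) were not called in any comparison.

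EGFR, the receptor of AREG, had its lowest mean in 1dpiT, as AREG did, with 1 array of that group within the range of 1dpi. Its signal was 7.96, 8.05 and 8.07 in 0dpi, 7.76, 7.87 and 7.90 in 1dpi, and 7.77, 7.54 and 7.57 in 1dpiT. It was 1.32-fold lower in 1dpiT than in 0dpi (-0.40 ± 0.07, adjusted p = 0.0092), with all arrays of 1dpiT below those of 0dpi. The difference between 1dpiT and 1dpi was -0.22 ± 0.07 (adjusted p = 0.025), which turned to 0.43 with spike-in centring and lost its call without 1dpi replicate 2 or 3 (adjusted p = 0.0716 and 0.082) or 1dpiT replicate 2 or 3 (0.0928 and 0.0835). Between 1dpi and 0dpi the value was -0.18 ± 0.07 (adjusted p = 0.052), and it passed without 0dpi replicate 1 (adjusted p = 0.0494) or 1dpiT replicate 1 (0.0205), with a filter on dim probe sets (0.0315), another variance model (0.0301) or 2 groups alone (0.0313). ERBB3, a partner receptor, stayed at 3.34 to 3.45, below the highest negative control mean of 3.47.

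Of the 5 genes that act on the release of these ligands, RHBDL2 was the one called. This share of 20% in each comparison stood against 52.9% (1dpi against 0dpi), 54% (1dpiT against 1dpi) and 5.6% (1dpiT against 0dpi) of all probe sets. RHBDL2 is a rhomboid protease that cuts within membranes, with ligands of the EGF family among its known substrates. It lay at 9.55, 9.46 and 9.47 in 0dpi, 9.73, 9.76 and 9.70 in 1dpi, and 8.89, 8.95 and 8.93 in 1dpiT, so that 1dpiT was lowest as for AREG. It was lower in 1dpiT than in 1dpi (-0.81 ± 0.05, adjusted p = 2.3e-07) and than in 0dpi (-0.57 ± 0.05, adjusted p = 8.7e-05), and its rise in 1dpi (0.24 ± 0.05, adjusted p = 0.0018) turned to -0.31 with spike-in centring. ADAM17, the sheddase known to cut amphiregulin in mammals, differed by -0.29 ± 0.13 between 1dpi and 0dpi (adjusted p = 0.075) in the probe set that stands for it, and a dimmer one was called lower in 1dpi than 0dpi (-0.19 ± 0.07, adjusted p = 0.042) and higher in 1dpiT than 1dpi (0.24 ± 0.07, adjusted p = 0.015). ADAM10, RHBDF1 and RHBDF2 were not called in any comparison.

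Of 9 measured genes listed for feedback on EGF receptor signalling, 4 were higher and 3 lower in 1dpi against 0dpi, 2 higher and 4 lower in 1dpiT against 1dpi, and 3 lower in 1dpiT against 0dpi. Called shares were 77.8%, 66.7% and 33.3%, against 52.9%, 54% and 5.6% of all probe sets. ERRFI1, whose product binds EGFR and blocks its kinase, lay at 7.70, 7.97 and 7.88 in 0dpi, 8.39, 8.60 and 8.53 in 1dpi, and 7.14, 7.11 and 7.00 in 1dpiT. It rose 1.57-fold in 1dpi (0.65 ± 0.08, adjusted p = 6e-05) and was lower in 1dpiT than in 1dpi (-1.42 ± 0.08, adjusted p = 1.7e-07) and than in 0dpi (-0.77 ± 0.08, adjusted p = 0.00041). ERRFI1 thus had the order of AREG, with no overlap of any pair of groups. DUSP5, a phosphatase of ERK, and LRIG3, of a family of membrane proteins that act on EGF receptors, were in the same order. DUSP5 differed by 0.34 ± 0.06, -0.68 ± 0.06 and -0.34 ± 0.06 (adjusted p = 0.00057, 3.7e-06 and 0.0083; 1dpi minus 0dpi, 1dpiT minus 1dpi, 1dpiT minus 0dpi), and the first of these became -0.20 with spike-in centring. LRIG3 differed by 0.35 ± 0.05, -0.60 ± 0.05 and -0.25 ± 0.05 (adjusted p = 0.00013, 2.1e-06 and 0.013), and the first and second became -0.20 and 0.049 with spike-in centring. Leaving out 0dpi replicate 2 (adjusted p = 0.0559), 0dpi replicate 3 (0.0509) or 1dpiT replicate 2 (0.0609) ended the last LRIG3 call.

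DUSP4, another ERK phosphatase, was higher in 1dpi than 0dpi (0.31 ± 0.08, adjusted p = 0.0067) and lower in 1dpiT than 1dpi (-0.41 ± 0.08, adjusted p = 0.0011), directions that turned to -0.24 and 0.23 with spike-in centring. The genes called lower in 1dpi than 0dpi were SPRED1 (-0.63 ± 0.14, adjusted p = 0.0028), SPRY1 (-0.26 ± 0.08, adjusted p = 0.020) and CBL (-0.26 ± 0.09, adjusted p = 0.040). SPRED1 and SPRY1 are inhibitors of RAS-ERK signalling, and CBL is a ubiquitin ligase that marks EGFR for breakdown. SPRY1 (0.24 ± 0.08, adjusted p = 0.030) and CBL (0.32 ± 0.09, adjusted p = 0.014) were higher in 1dpiT than in 1dpi. The calls of SPRY1 were lost without 0dpi replicate 2 or 3 or 1dpi replicate 2 (adjusted p = 0.0652, 0.078 and 0.0749, 1dpi against 0dpi) and without 1dpi replicate 1 or 2 or 1dpiT replicate 1 or 3 (adjusted p = 0.0625, 0.102, 0.0752 and 0.0935, 1dpiT against 1dpi). That of CBL in 1dpi was lost without 0dpi replicate 2 or 3 or without any array of 1dpi (adjusted p = 0.0575 to 0.142), and SPRED1 passed the test in 1dpiT against 0dpi without 0dpi replicate 3 (adjusted p = 0.0423).

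**Figure D3:**
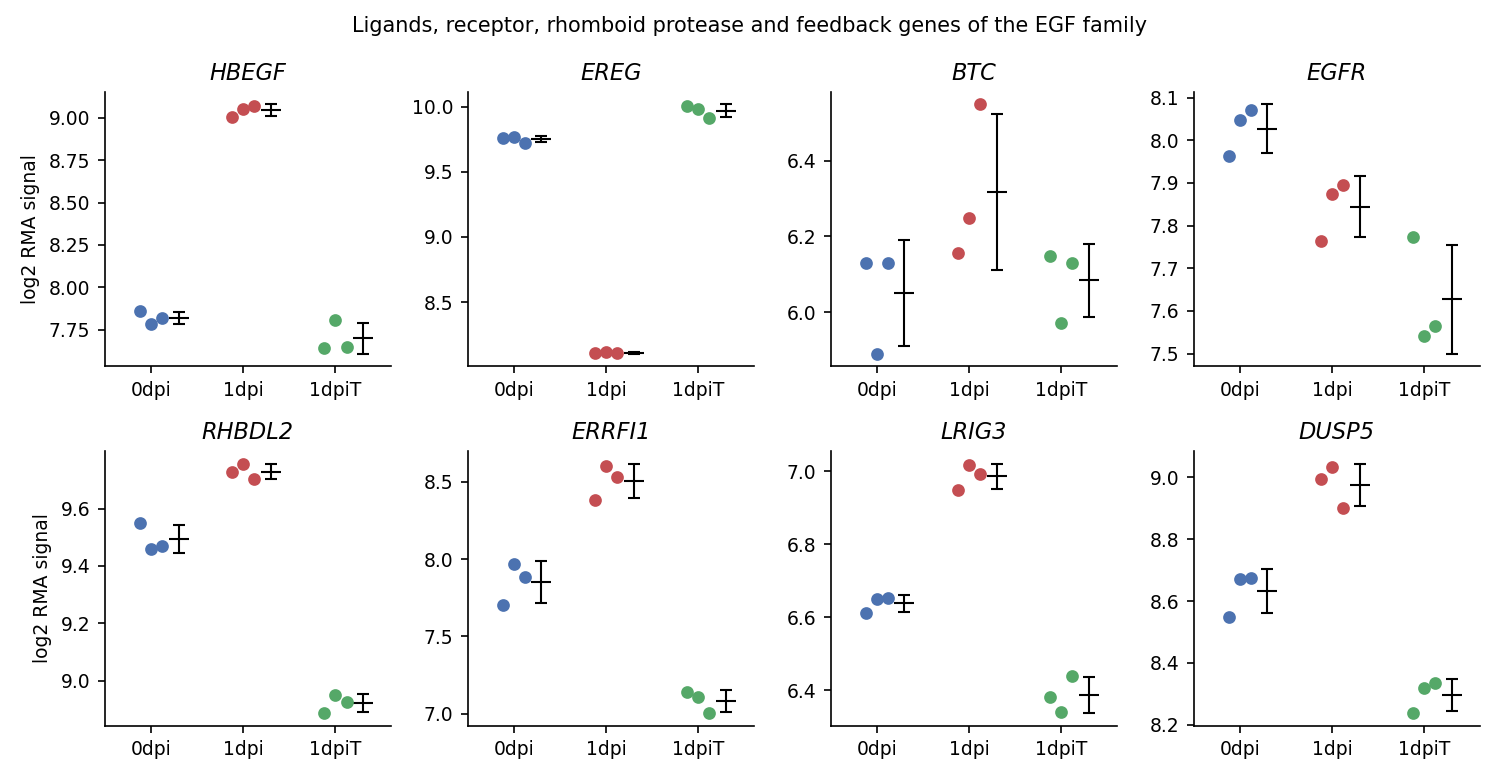
Log2 RMA signal (vertical axis, scaled per gene and not from 0) of 8 genes of the EGF family, its release and its feedback, with 1 point per array in each group and the group mean ± SD (n = 3). HBEGF, RHBDL2, ERRFI1, LRIG3 and DUSP5 were highest in 1dpi and EREG lowest there (8.10 to 8.12), and with spike-in centring RHBDL2, LRIG3, DUSP5 and BTC turned to lower in 1dpi than in 0dpi.

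The ligands of IGF1R (IGF1, IGF2 and INS) and the receptors INSRR and IGF2R were not among the annotated probe sets. INSR, the insulin receptor and the closest relative of IGF1R, was measured at 5.11, 5.25 and 4.89 in 0dpi, 4.81, 4.95 and 5.02 in 1dpi, and 5.09, 5.04 and 4.65 in 1dpiT. The groups overlapped, and no comparison passed the test (-0.15 ± 0.13, -0.00 ± 0.13 and -0.16 ± 0.13, adjusted p = 0.33, 1.00 and 0.59). The higher level of IGF1R in 1dpiT was not accompanied by a call for INSR in this model. With spike-in centring INSR was called in 1dpi against 0dpi (-0.70, adjusted p = 0.00043) and in 1dpiT against 1dpi (0.65, adjusted p = 0.00072). A test of the difference between the 2 genes was not made.

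The IGF binding proteins, which hold IGFs outside the cell, were called in both directions, and all 6 measured genes were called in 1dpiT against 1dpi. In that comparison 54% of all probe sets were called, and the calls of IGFBP5 and IGFALS turned direction with spike-in centring. IGFBP2, a binding protein of the developing and adult brain, lay at 8.93, 8.95 and 8.95 in 0dpi, 7.39, 7.56 and 7.61 in 1dpi, and 8.96, 9.09 and 8.95 in 1dpiT. It fell 2.69-fold in 1dpi (-1.43 ± 0.06, adjusted p = 4.4e-08) and was 2.79-fold higher in 1dpiT than in 1dpi (1.48 ± 0.06, adjusted p = 2.8e-08), at a level that overlapped uninjured cord. IGFBP7, which binds IGFs weakly, was also lower in 1dpi (-1.04 ± 0.13, adjusted p = 6.8e-05) and higher in 1dpiT than in 1dpi (0.82 ± 0.13, adjusted p = 0.00034). IGFBP3, the main carrier of IGFs in mammalian blood, took the reverse course. It lay at 7.11, 7.13 and 7.04 in 0dpi, 8.36, 8.40 and 8.48 in 1dpi, and 6.90, 6.67 and 6.87 in 1dpiT. It rose 2.49-fold in 1dpi (1.32 ± 0.07, adjusted p = 1e-07) and was 3.04-fold lower in 1dpiT than in 1dpi (-1.60 ± 0.07, adjusted p = 2.1e-08).

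IGFBP3 was the 1 gene of the list called in 1dpiT against 0dpi (-0.29 ± 0.07, adjusted p = 0.038). That call did not hold without any array of 0dpi (adjusted p = 0.0965, 0.125 and 0.0621 in order of replicate), without 1dpi replicate 2 (0.0612), and without 1dpiT replicate 2 (0.106) or 3 (0.0643). IGFBP6, which prefers IGF2, was higher in 1dpi than 0dpi (0.60 ± 0.06, adjusted p = 1e-05) and lower in 1dpiT than 1dpi (-0.80 ± 0.06, adjusted p = 9.9e-07). Against 0dpi it differed by -0.21 ± 0.06 (adjusted p = 0.074, and 0.0479 without 1dpiT replicate 3). The calls of IGFBP5 were small (0.21 ± 0.05, adjusted p = 0.0054, and -0.16 ± 0.05, adjusted p = 0.019) and turned to -0.34 and 0.49 with spike-in centring. Leaving out 1dpi replicate 3 (adjusted p = 0.0675) or 1dpiT replicate 2 (0.0719) ended the second. IGFALS, a protein of the circulating IGF complex, was lower in 1dpiT than in 1dpi (-0.25 ± 0.08, adjusted p = 0.028), which turned to 0.40 with spike-in centring and was lost without 1dpi replicate 1 or 3 or 1dpiT replicate 1 or 2 (adjusted p = 0.0791 to 0.103). Against 0dpi it differed by -0.30 ± 0.08 (adjusted p = 0.067), which passed without 1dpi replicate 2 (0.0284) and with 0dpi and 1dpiT alone in the model (0.0412).

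Of the 2 measured genes that act on IGF binding proteins, 1 was called in each comparison with 1dpi (50%, against 52.9% and 54% of all probe sets). PAPPA2, a protease that cuts IGFBP3 and IGFBP5, was higher in 1dpi than in 0dpi (0.31 ± 0.06, adjusted p = 0.0017), which turned to -0.24 with spike-in centring. STC1, a stanniocalcin of the family that inhibits such proteases, was lower in 1dpiT than in 1dpi (-0.27 ± 0.08, adjusted p = 0.018, and 0.0624 without 1dpiT replicate 1), which turned to 0.38. Its value in 1dpi against 0dpi was 0.19 ± 0.08 (adjusted p = 0.069, and 0.0499 and 0.0376 without 1dpi replicates 2 and 3), which turned to -0.35. STC1 lay at 3.77 to 4.30 over all arrays, near the highest negative control mean of 3.47. The IGF2 mRNA-binding proteins in mammals bind the transcript of IGF2 and other growth genes. Of 3 such genes, 2 were called in each comparison with 1dpi (66.7%, against 52.9% and 54% of all probe sets). IGF2BP3 lay at 6.82, 7.32 and 7.13 in 0dpi, 5.87, 5.83 and 5.94 in 1dpi, and 7.45, 7.17 and 7.08 in 1dpiT, a fall of 2.31-fold in 1dpi (-1.21 ± 0.12, adjusted p = 1.6e-05) and a level 2.55-fold higher in 1dpiT than in 1dpi (1.35 ± 0.12, adjusted p = 6.4e-06). IGF2BP1 differed by -0.97 ± 0.14 (adjusted p = 0.0002) and 0.94 ± 0.14 (adjusted p = 0.00023) in the same comparisons. Neither was called in 1dpiT against 0dpi, the comparison in which IGF1R stood most apart.

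**Figure D4:**
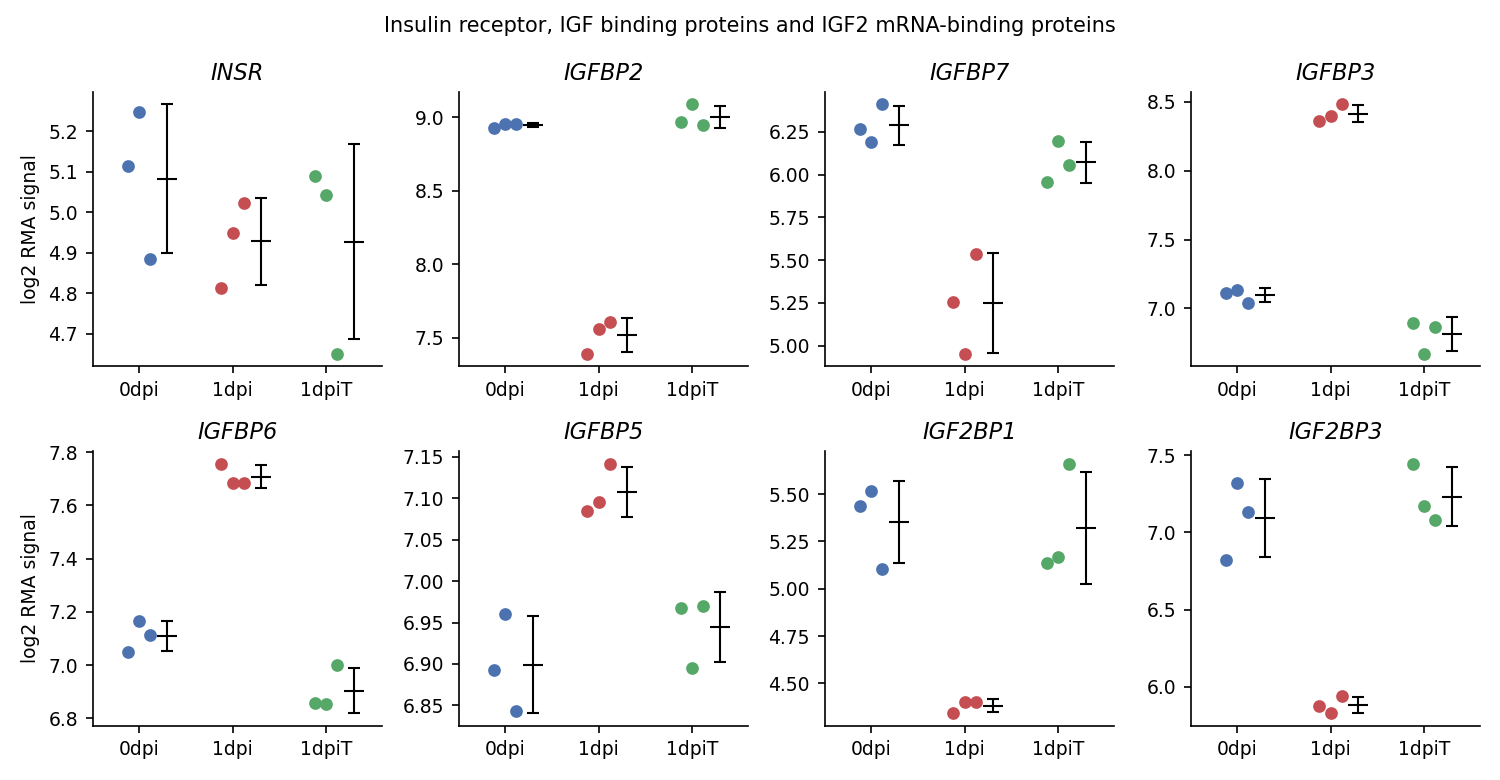
Log2 RMA signal (vertical axis, scaled per gene and not from 0) of the insulin receptor INSR, 5 IGF binding proteins and 2 IGF2 mRNA-binding proteins, with 1 point per array in each group and the group mean ± SD (n = 3). IGFBP2, IGFBP7, IGF2BP1 and IGF2BP3 were lowest in 1dpi and IGFBP3, IGFBP6 and IGFBP5 highest there, with IGFBP5 turning direction in both comparisons with 1dpi under spike-in centring, and INSR overlapped between all groups.

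Below the receptors, 3 of 10 docking and adaptor genes were higher and 0 lower in 1dpi against 0dpi, and 0 higher and 2 lower in 1dpiT against 1dpi. These shares of 30% and 20% lay below the 52.9% and 54% of all probe sets. Higher in 1dpi were SOS2, a RAS exchange factor (0.42 ± 0.11, adjusted p = 0.0074), IRS1, the insulin receptor substrate (0.24 ± 0.08, adjusted p = 0.026), and SH2B1, an adaptor (0.24 ± 0.08, adjusted p = 0.032), and all of them turned to lower with spike-in centring (-0.12, -0.30 and -0.31). SOS2 (-0.43 ± 0.11, adjusted p = 0.0063) and IRS1 (-0.41 ± 0.08, adjusted p = 0.0014) were lower in 1dpiT than in 1dpi, which turned to 0.21 and 0.24. Signals of IRS1 (3.49 to 4.08 over all arrays in the probe set used) and SH2B1 (3.55 to 4.02) were dim, since the brightest negative control averaged 3.47. The other probe set of IRS1 was not called. With the mean of its probe sets, IRS1 was no longer called in 1dpi against 0dpi (0.10, adjusted p = 0.228). The call of IRS1 in 1dpi did not hold without 0dpi replicate 1 (adjusted p = 0.0938) or 1dpi replicate 1 (0.0764) or 3 (0.092), nor that of SH2B1 without 0dpi replicate 1 (0.105) or 3 (0.0977) or 1dpi replicate 1 (0.116). None of the 10 was called in 1dpiT against 0dpi.

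The PI3K, AKT and mTOR list had 9 genes higher and 5 lower of 25 in 1dpi against 0dpi, 4 higher and 11 lower in 1dpiT against 1dpi, and 0 higher and 3 lower in 1dpiT against 0dpi. Called shares were 56%, 60% and 12%, against 52.9%, 54% and 5.6% of all probe sets. DDIT4, an inhibitor of mTOR complex 1 that is induced by many stresses, moved farthest. Its signal was 7.51, 7.56 and 7.62 in 0dpi, 10.46, 10.37 and 10.21 in 1dpi, and 6.08, 6.38 and 6.21 in 1dpiT. It rose 6.9-fold in 1dpi (2.79 ± 0.09, adjusted p = 3.3e-09), was 17.4-fold lower in 1dpiT than in 1dpi (-4.12 ± 0.09, adjusted p = 1.7e-10) and 2.52-fold lower than in 0dpi (-1.34 ± 0.09, adjusted p = 1.5e-05). DDIT4 was thus in the order of AREG.

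SGK1, a kinase related to AKT, was lower in 1dpiT than in 1dpi (-0.72 ± 0.05, adjusted p = 4e-07) and than in 0dpi (-0.46 ± 0.05, adjusted p = 0.00029), and its rise in 1dpi (0.26 ± 0.05, adjusted p = 0.00068) turned to -0.28 with spike-in centring. FOXO1, a transcription factor that AKT holds out of the nucleus, was lower in 1dpiT than in 0dpi (-0.44 ± 0.08, adjusted p = 0.0084) and than in 1dpi (-0.61 ± 0.08, adjusted p = 6.5e-05), the latter turning to 0.034 with spike-in centring. Its value in 1dpi against 0dpi was 0.17 ± 0.08 (adjusted p = 0.090, and 0.0393 without 0dpi replicate 3), which turned to -0.38. RPS6KB1, the S6 kinase below mTOR, was lower in 1dpi (-1.37 ± 0.09, adjusted p = 6.9e-07) and higher in 1dpiT than in 1dpi (1.39 ± 0.09, adjusted p = 5.4e-07), and its other probe sets were called in the same directions. PDPK1, the kinase that activates AKT, differed likewise (-1.14 ± 0.08, adjusted p = 7.4e-07, and 1.31 ± 0.08, adjusted p = 2.4e-07), but its second probe set was not called (-0.04 and 0.06).

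The other genes called lower in 1dpi were RPS6KB2 (-0.31 ± 0.07, adjusted p = 0.0027), PIK3CA, a catalytic subunit of PI3K (-0.22 ± 0.06, adjusted p = 0.013, and 0.0541 without 1dpi replicate 2), and EIF4EBP2, a repressor of translation (-0.23 ± 0.08, adjusted p = 0.029, and 0.0628 to 0.102 without 0dpi replicate 2 or 3 or 1dpi replicate 1 or 2). RPS6KB2 (0.35 ± 0.07, adjusted p = 0.0012) and EIF4EBP2 (0.37 ± 0.08, adjusted p = 0.0022) were higher in 1dpiT than in 1dpi. PIK3CA was at 0.15 ± 0.06 there (adjusted p = 0.069, and 0.0119 without 1dpi replicate 1).

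In the RAS and ERK list 1 gene was higher and 4 lower of 7 in 1dpi against 0dpi, with the reverse in 1dpiT against 1dpi and 0 called in 1dpiT against 0dpi. The share in each comparison with 1dpi was 71.4%, against 52.9% and 54% of all probe sets. RPS6KA1, a kinase activated by ERK, was 2.98-fold lower in 1dpi than 0dpi (-1.57 ± 0.06, adjusted p = 1.6e-08) and 2.82-fold higher in 1dpiT than 1dpi (1.50 ± 0.06, adjusted p = 1.9e-08). MAP2K2, which activates ERK, differed by -1.01 ± 0.06 and 1.09 ± 0.06 (adjusted p = 2.9e-07 and 1.4e-07). NRAS differed by -0.43 ± 0.05 and 0.43 ± 0.05, and RPS6KA3 by -0.48 ± 0.06 and 0.48 ± 0.06. BRAF was the gene of opposite direction (0.33 ± 0.10, adjusted p = 0.016, and -0.42 ± 0.10, adjusted p = 0.0039), which turned to -0.22 and 0.23 with spike-in centring. Leaving out 0dpi replicate 3 (adjusted p = 0.0607) or 1dpi replicate 1 (0.06) ended the first call.

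YAP and TEAD are a coactivator and its DNA-binding partners, and AREG and ANKRD1 are known targets of theirs in mammalian cells. ANKRD1, which is also a protein of muscle, lay at 10.80, 10.68 and 10.72 in 0dpi, 11.36, 11.37 and 11.42 in 1dpi, and 10.42, 10.49 and 10.43 in 1dpiT, the order of AREG with no overlap. It rose in 1dpi (0.65 ± 0.05, adjusted p = 1.9e-06) and was lower in 1dpiT than in 1dpi (-0.94 ± 0.05, adjusted p = 1.2e-07) and than in 0dpi (-0.29 ± 0.05, adjusted p = 0.0089). The 4 measured genes of the factors themselves were lower in 1dpi, namely TEAD1 (-1.05 ± 0.11, adjusted p = 1.7e-05), YAP1 (-0.46 ± 0.07, adjusted p = 0.0002), TEAD3 (-0.30 ± 0.09, adjusted p = 0.017) and TEAD4 (-0.22 ± 0.06, adjusted p = 0.0073). Of all probe sets 28.2% were called lower in 1dpi than in 0dpi. Over the 5 measured genes of the list, called shares were 100%, 80% and 20%, against 52.9%, 54% and 5.6% of all probe sets. TEAD1 (1.18 ± 0.11), YAP1 (0.67 ± 0.07) and TEAD4 (0.18 ± 0.06) were higher in 1dpiT than in 1dpi, with adjusted p = 6.4e-06, 1.2e-05 and 0.021. A dimmer probe set of YAP1 was called in 1dpiT against 1dpi alone (0.21, adjusted p = 0.041). The TEAD3 call did not hold without 1dpi replicate 2 or 3 (adjusted p = 0.0584 and 0.0665), TEAD3 passed in 1dpiT against 1dpi without 1dpi replicate 1 (0.0068), and the later TEAD4 call was lost without 1dpi replicate 2 (0.063) or 1dpiT replicate 3 (0.0691). The targets CCN1, CCN2, AMOTL2, AJUBA, LATS2 and AXL were not among the annotated probe sets.

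Genes whose course over the 9 arrays was nearest to each member were found by the root mean square (RMS) difference of log2 signal after each gene was centred on its own mean, among 8638 genes. AREG had close neighbours, with an RMS of 0.0583 for SOCS1, 0.0698 for GPR84, 0.0722 for RGMB, 0.0812 for PCOLCE2 and 0.0831 for SNX10, where the median over all genes was 0.505. SOCS1 is a suppressor of cytokine signalling. GPR84 is a receptor of myeloid cells, RGMB a co-receptor for bone morphogenetic proteins, PCOLCE2 an enhancer of procollagen processing and SNX10 a protein of endosomes. SOCS1 lay at 10.46 to 10.52 in 0dpi, 11.38 to 11.44 in 1dpi and 10.03 to 10.15 in 1dpiT. GPR84 lay at 6.33 to 6.43, 7.11 to 7.22 and 5.98 to 6.13 in the same order. As chosen, all 5 were highest in 1dpi and lowest in 1dpiT in the probe sets used. Second probe sets of RGMB and PCOLCE2 had smaller differences in 1dpi against 0dpi (0.47 and 0.06) than the sets used (0.77 and 0.94). In 1dpiT against 0dpi the second set of RGMB differed by 0.13, opposite in sign to the set used (-0.27). That of PCOLCE2 differed by -0.05 there, against -0.19 in the set used.

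IGF1R had no gene as near. Its arrays scattered more within groups (SD 0.11, 0.18 and 0.09 in 0dpi, 1dpi and 1dpiT) than those of AREG (0.07, 0.05 and 0.04). Such scatter adds to the RMS, so the 2 members are not compared on equal terms. The RMS was 0.184 for ACTR6, 0.185 for HAUS3, 0.189 for EIF2AK4, 0.192 for IPO11 and 0.204 for FAM53A, with a median over all genes of 0.405. ACTR6 is an actin-related protein of a chromatin remodelling complex, HAUS3 a subunit of augmin at the mitotic spindle, EIF2AK4 a kinase that senses lack of amino acids and IPO11 a nuclear import receptor. All 5 were highest in 1dpiT, by 0.39 to 0.46 over 0dpi against 0.81 for IGF1R itself, and this contrast between genes was not tested. ACTR6 lay at 7.52 to 7.64 in 0dpi, 7.43 to 7.48 in 1dpi and 7.91 to 8.07 in 1dpiT. The second probe set of EIF2AK4 differed by 0.12 between 1dpiT and 0dpi. AREG and IGF1R were 0.795 apart, farther than the median gene from either.

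**Figure D5:**
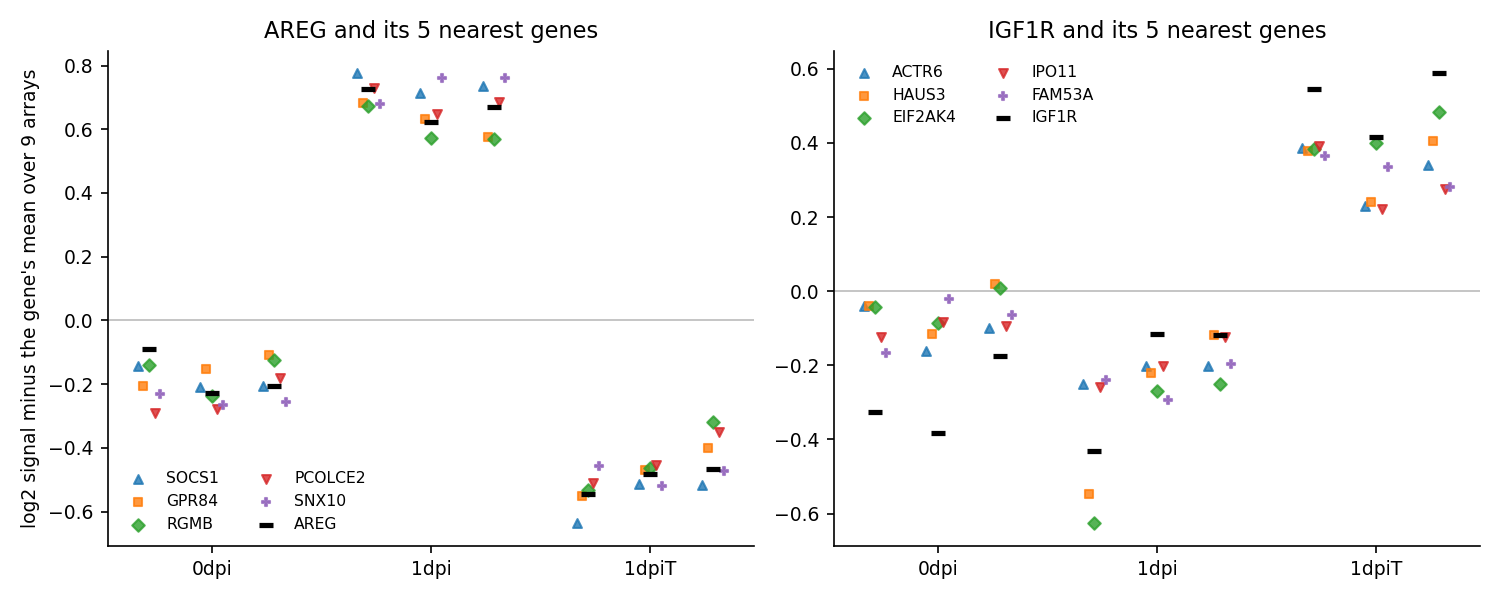
Log2 RMA signal minus the mean of each gene over the 9 arrays (vertical axis) for AREG (left) and IGF1R (right), drawn as black bars, and the 5 genes nearest to each, with 3 arrays per group side by side. The 5 genes followed AREG at an RMS of 0.0583 to 0.0831, while those nearest to IGF1R, at 0.184 to 0.204, lay below it in all arrays of 1dpiT; the genes were chosen for this likeness.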

How the data were processed

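RNA of 9 pools of axolotl cord, 150 ng each, had been labelled with the GeneChip 3′ IVT Express kit and read on custom Affymetrix arrays. The authors deposited log2 RMA signals, for which background is corrected, array distributions are equalised and each probe set is summarised. RMA in Affymetrix Expression Console is the tool that the submitters' processing notes give, with versions not given in the sources used here. Equalised distributions hide a change in total RNA. Values ran from 2.65 to 14.6 with 0 missing. Arrays give no read depth, and their number limits the precision.

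Of 20080 probe sets, 45 array controls (24 poly-A, 18 hybridization and 3 negative) were left out. The platform annotation gave 1 symbol to 10951 of the other 20035, none to 9084 and several to 0, in all 8639 symbols. Both members matched 1 gene each in the RefSeq table. For 1740 genes with several probe sets, the one of highest mean over 9 arrays stood for the gene. No sequence was used.

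Groups were taken from the sample labels. In R 4.3.3 with limma 3.58.1, 1 linear model over all 9 arrays (lmFit and eBayes without trend, 2-sided) gave 3 comparisons, adjusted by the Benjamini-Hochberg method over 20035 probe sets and called below 0.05. It was tested on simulated data first. Replicates are pools, so p-values measure the spread between pools and not between animals. The members, pathway lists and marker lists were chosen with earlier results of these data known. Named genes are AREG and IGF1R, all measured ligands, receptors and IGF binding proteins, up to 3 called genes of smallest p per other list and comparison, genes of counts of 5 or fewer, and the 5 nearest genes of each member. The other genes of ligand shedding, those not measured, and EPCAM, GFAP, SLC1A3 and other markers do not follow this rule and were named with their values known. Alternatives were another filter, variance model, normalisation, spike-in centring, fewer groups, a replicate block, a rule of unadjusted p and 2-fold, the mean of probe sets and each array left out.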

Additional observations from a re-analysis of the deposited data

How the results depend on the processing

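With spike-in centring the number of pathway genes called became 72 (3 higher, 69 lower) in 1dpi against 0dpi and 75 (67 higher, 8 lower) in 1dpiT against 1dpi, and AREG differed by 0.30, -0.52 and -0.22 and IGF1R by -0.47, 1.39 and 0.91 in the 3 comparisons. That alternative also turned the direction of 32 gene values. In 1dpi against 0dpi these were SOS2 (-0.12), LRIG3 (-0.20), DUSP5 (-0.20), BRAF (-0.22), PAPPA2 (-0.24), DUSP4 (-0.24), BTC (-0.28), SGK1 (-0.28), IRS1 (-0.30), SH2B1 (-0.31), RHBDL2 (-0.31), IGFBP5 (-0.34), STC1 (-0.35), NRG3 (-0.36), FOXO1 (-0.38), ERBB3 (-0.51) and EGF (-0.53). In 1dpiT against 1dpi they were FOXO1 (0.034), LRIG3 (0.049), SOS2 (0.21), BRAF (0.23), DUSP4 (0.23), IRS1 (0.24), STC1 (0.38), IGFALS (0.40), BTC (0.41), EGFR (0.43), IGFBP5 (0.49), EGF (0.52), PAPPA2 (0.52), NRG3 (0.59) and INSR (0.65). These shifts follow from the spike-in means, and why those differ was not tested. At an unadjusted p below 0.05 and 2-fold, 12, 12 and 1 pathway genes passed, since this rule also asks for size. Leaving out 1 array gave 41 to 47, 41 to 47 and 8 to 11 calls, and differences of 0.82 to 0.89, -1.20 to -1.14 and -0.35 to -0.28 for AREG and of 0.02 to 0.18, 0.63 to 0.79 and 0.77 to 0.87 for IGF1R. Replicate numbers are shared by the groups, but deviations of arrays with the same number correlated at 0.0734 to 0.231, -0.225 to -0.0388 and -0.18 to -0.0762, so they were not taken as pairs. With the replicate number as a block, 46, 47 and 9 pathway genes were called, and the calls of IGFBP3 (adjusted p = 0.0752) and EREG (0.0544) in 1dpiT against 0dpi were among those lost. The block also ended the calls of CBL (0.0551) and SH2B1 (0.0602) in 1dpi against 0dpi and brought BTC past the threshold there (0.0296) and in 1dpiT against 1dpi (0.0485). Filtering, trend, median or quantile scaling, fewer groups and the mean of probe sets kept each of the counts within 1.5 times. Median scaling ended 4 calls of named genes and added 5. Those ended were CBL (adjusted p = 0.071) and EIF4EBP2 (0.0526) in 1dpi against 0dpi, and SPRY1 (0.0567) and TEAD4 (0.0564) in 1dpiT against 1dpi. Quantile scaling ended that of CBL (0.0623) and added 4. Trend ended that of IGFBP5 in 1dpiT against 1dpi (0.0514) and added 4. Fewer groups ended those of EREG (0.0578) and IGFBP3 (0.0743) in 1dpiT against 0dpi and added 3. The mean of probe sets ended 1 (IRS1) and added 1.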
